A study of Arabidopsis thaliana with 24 samples.

Results

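Leaves of Arabidopsis thaliana plants that over-express the B-box gene BBX32 were compared with leaves of wild-type plants, all kept in their growth light. The comparison used 8 of the series' 24 RNA-seq libraries, 4 of the line BBX32-10 and 4 of its wild-type background Col-0, chosen by genotype and light treatment alone. Each library came from 4 fully expanded leaves of a separate plant aged 35 days, grown at 23 °C in 8 h of light and 16 h of dark, under a growth light of 150 µmol photons m-2 s-1, called LL in the labels. The other 16 libraries were Col-0 and BBX32-10 plants after 3.5 h at 1100 µmol photons m-2 s-1 and plants of the HY5 null line hy5-2 in both lights. They entered the statistical model through its estimate of the spread between replicates. They also counted in the choice of genes to test and in the rescaling of libraries described below. BBX32-10 is 1 line, and the promoter that drives BBX32 in it was not given in the sources used here.

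BBX32 is a small B-box protein with a zinc-binding domain at its N-terminus and no CCT domain. It is known to interact with BBX21 and, through it, to counteract HY5, a bZIP transcription factor that promotes light-dependent development. HY5 and its homologue HYH bind ACGT-containing promoter elements and are best known for activating genes of flavonoid synthesis, photoprotection and chloroplast function. The ubiquitin ligase complex of COP1 and the SPA proteins marks HY5 for degradation in the dark.

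Transcript levels are given as FPKM, fragments scaled to gene length and library depth, as deposited. Changes are BBX32-10 minus Col-0 on the log2(FPKM + 1) scale, which understates the change of weakly expressed genes. Depth, recovered from the steps of the FPKM values, was 35408727 to 40866175 fragments in the Col-0 libraries and 36780816 to 44995657 in the BBX32-10 libraries. Leaf identity was checked with markers. Their counts of called members before rescaling stand beside 25.8% higher and 16.7% lower among all tested genes. Summed mesophyll markers (RBCS1A, LHCB3, LHCB6, RCA and CA1) reached 29690 to 34122 FPKM in Col-0 and 25577 to 29774 in BBX32-10. Of these 5 members 2 were called lower, the antenna genes LHCB3 and LHCB6, and none higher. The 4 root markers summed to only 2.13 to 5.81 FPKM in Col-0 and 7.84 to 20.8 in BBX32-10. Among them 3 stayed below 1 in every library, and the 1 tested member was called higher (log2 change 1.46). Summed phloem markers were 106 to 159.5 FPKM in Col-0 and 241 to 274 in BBX32-10, with 4 of 5 tested members higher and none lower (3 and 0 after rescaling). SWEET11 and SWEET12 made up most of that gap. Summed xylem markers were 17.0 to 21.4 and 23.3 to 34.5 FPKM, with 3 of 5 tested members higher and none lower (2 and 0 after rescaling), and no defining member of either list was at 0. Summed epidermal markers were 1246 to 1653 and 2075 to 2309 FPKM, mostly LTP1, with 2 of 7 tested members higher and 1 lower (1 and 1 after rescaling). TRY, of trichome patterning, was the member that fell, from 5.52 ± 0.756 to 0.404 ± 0.141 FPKM. These sums moved with the genotype, and their part in the changes below was not tested. Summed guard cell and dividing cell markers overlapped between the genotypes. Of 10 guard cell members 1 was called lower and none higher, and of 6 dividing cell members none was called. In whole leaves, fewer cells of a type and less RNA per cell cannot be told apart.

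Over-expression of BBX32 was accompanied by broad but mostly small differences. Of 17788 genes tested, 42.5% passed an adjusted p of 0.05 (limma with Benjamini-Hochberg adjustment), 25.8% being higher in BBX32-10 and 16.7% lower, and the median change over all tested genes was 0.10. Called changes of at least 2-fold made up 6.31% of tested genes and were mostly falls, with 346 genes higher (1.95% of those tested) and 776 lower (4.36%). Rescaling of the libraries by their median ratio to the average library turned the balance of all calls to 3488 higher and 3831 lower, so where rescaling changed a list's number of rises, the rescaled numbers of rises and falls are given beside it. The first principal component of the 8 libraries held 71.1% of their variance and separated the genotypes. Libraries of the 2 genotypes did not overlap for 48.8% of tested genes, BBX32-10 being higher in 30.6% and lower in 18.2%. Called or non-overlapping genes named below, and counts of called list members, stand beside these shares over all tested genes. The shares of 25.8% and 16.7% are for calls before rescaling. Counts after rescaling stand beside 3488 higher and 3831 lower of the 17788 tested genes.

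The library labels held for the over-expressed gene. BBX32 (AT3G21150, chromosome 3, 7412445 to 7413727) stood at 3.72, 4.07, 3.15 and 2.27 FPKM in Col-0 replicates 1 to 4 and at 809.5, 853, 897 and 821 in BBX32-10. Every over-expressor library lay far above every wild-type library. The ratio of means was 256 (log2 change 7.64, SE 0.21, limma adjusted p 7.19e-17).

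HY5 and its homologue HYH were higher in mRNA. HY5 (AT5G11260, chromosome 5, 3593335 to 3595073) was at 8.36, 6.26, 7.78 and 7.20 FPKM in Col-0 and at 34.3, 41.0, 39.3 and 33.0 in BBX32-10. HYH (AT3G17609, chromosome 3, 6023844 to 6024710) was at 19.9, 20.0, 18.1 and 17.2 FPKM in Col-0 and at 95.9, 106, 99.1 and 82.1 in BBX32-10. No library of one genotype came near the other for either gene, and the ratios of means were 4.99 and 5.10 (log2 changes 2.17 and 2.29, SE 0.15 and 0.10, limma adjusted p 6.72e-10 and 6.55e-13). RUP2, which with RUP1 returns the UV-B photoreceptor UVR8 to its inactive dimer, rose from 7.14 ± 0.723 to 14.8 ± 1.65 FPKM (SD, n = 4; limma adjusted p 0.000168). RUP1 rose from 1.17 ± 0.254 to 1.91 ± 0.367 FPKM (limma adjusted p 0.0161), a call that held in 6 of the 8 fits that each left out 1 library. UVR8 itself stood at 45.2 to 53.7 FPKM in Col-0 and 44.9 to 49.1 in BBX32-10, which overlapped.

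The genes for the COP1 and SPA complex did not move as a unit. SPA3 rose from 17.6 ± 1.28 to 30.3 ± 1.79 FPKM and SPA4 from 8.27 ± 0.527 to 13.4 ± 1.48 (SD, n = 4; limma adjusted p 1.48e-06 and 6.89e-05). SPA1, the most abundant of the family here, fell from 38.2 ± 1.71 to 29.2 ± 1.71 FPKM (limma adjusted p 0.000608). COP1, the ligase itself, changed by 0.23 and SPA2 by 0.17 (limma adjusted p 0.00911 and 0.0214), and after rescaling neither was called (adjusted p 0.121 and 0.335). The SPA2 call held in 5 of the 8 fits that each left out 1 library. DET1, another repressor of light-dependent development, rose by 0.37. In all, 9 of the 11 genes of this module were called higher and 1 lower, against 25.8% and 16.7% of all tested genes. After rescaling 7 were higher and 2 lower, against 3488 and 3831 of all 17788 tested genes.

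**Figure D1:**
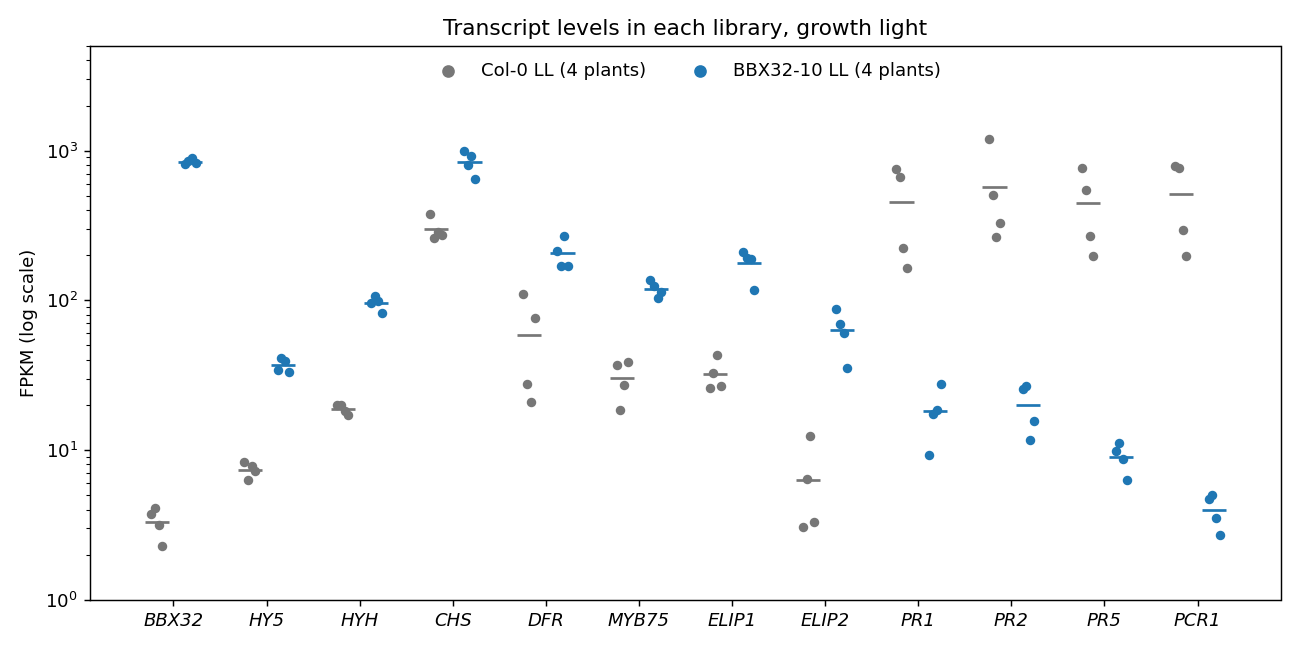
FPKM of 12 genes in each of the 8 libraries (logarithmic axis, 1 point per plant, horizontal bars at the mean), Col-0 in grey and BBX32-10 in blue. The genotypes do not overlap for any of the 12 genes shown, as for 48.8% of all tested genes. BBX32 lies at 2.27 to 4.07 FPKM in Col-0 and at 809.5 to 897 in BBX32-10, and PCR1 at 199 to 788 and at 2.71 to 4.98.

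Several B-box relatives of BBX32 were lower. BBX30 (listed in the table as MIP1A), a microProtein that binds CONSTANS, was at 12.0, 14.5, 16.7 and 16.7 FPKM in Col-0 and 1.65, 1.38, 1.10 and 0.879 in BBX32-10, a log2 change of -2.83 (SE 0.24, limma adjusted p 6.96e-09). BBX27 fell from 16.7 ± 1.23 to 3.41 ± 1.51 FPKM and BBX22, a co-activator of HY5 in seedlings, from 31.9 ± 2.44 to 16.6 ± 1.67 (SD, n = 4; limma adjusted p 6.2e-06 and 1.76e-05). BBX29 and BBX28 fell by 0.83 and 0.41. BBX18 rose by 0.48 (limma adjusted p 0.000615). BBX21, the known partner of BBX32, had 11.8 to 13.3 FPKM in Col-0 and 8.03 to 11.9 in BBX32-10 and was not called (log2 change -0.28, limma adjusted p 0.106). BBX19, BBX24, BBX25 and BBX31 were not called either, with changes from -0.16 to 0.35. BBX20, BBX23 and BBX26 were too low to test. Apart from BBX32 itself, 1 of 11 tested relatives was thus called higher and 5 lower. Among 9 tested CONSTANS-like genes, COL2 rose from 5.87 ± 0.718 to 15.5 ± 1.18 FPKM and COL9 from 0.317 ± 0.116 to 1.41 ± 0.145, whereas COL5 fell from 119 ± 11.3 to 71.2 ± 4.17 and COL16 from 251 ± 9.49 to 207 ± 9.61, the last a call that held in 3 of 8 leave-one-out fits. Antisense genes cover 32.1% and 28.7% of COL2.

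Among the 10 largest rises with no overlap between libraries, several belong to pathways described below (ELIP2, F3'H and 3AT1). The others were mixed. UNE10 (AT4G00050, chromosome 4, 17639 to 20183), a bHLH protein of the phytochrome-interacting type also called PIF8, was at 7.37, 9.45, 11.8 and 9.84 FPKM in Col-0 and 69.5, 68.0, 53.5 and 56.8 in BBX32-10. The ammonium transporter gene AMT1-2 rose from 6.47 ± 0.744 to 42.6 ± 4.99 FPKM and the unnamed gene AT3G61920 from 1.14 ± 0.314 to 15.6 ± 2.37 (SD, n = 4). These 3 had log2 changes of 2.58, 2.54 and 2.96 (limma adjusted p 2.16e-13, 1.19e-09 and 2.05e-11). The lipid transfer protein gene LTP3, the glutathione transferase gene GSTU24 and the auxin glucosyltransferase gene UGT74E2 rose less evenly. Their BBX32-10 libraries held 73.5, 178, 29.8 and 44.1 FPKM for LTP3, 8.88, 35.0, 10.3 and 7.26 for GSTU24 and 3.90, 16.8, 6.12 and 5.98 for UGT74E2, so replicate 2 was the highest of the 4 for each. Ratios of means were 6.92, 10.5 and 15.5, and without that replicate 4.18, 6.04 and 10.1. Without Col-0 replicate 3 the ratios for LTP3 and UGT74E2 were 10.4 and 36.8. The Col-0 libraries held 6.15 to 23.6, 0.687 to 2.34 and 0.0940 to 1.45 FPKM. The 10 largest falls were led by defence genes. Of the uncharacterised genes among them, AT1G76960 fell from 363 ± 102 to 7.15 ± 0.368 FPKM, AT1G13470 from 69.2 ± 22.0 to 0.936 ± 0.101, AT3G55240 from 33.3 ± 4.49 to 0.314 ± 0.268 and AT3G15536 from 41.0 ± 19.6 to 0.527 ± 0.248. Without BBX32-10 replicate 3 the mean of AT3G55240 in that group was 0.182.

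Phenylpropanoid and flavonoid synthesis was higher at nearly every step measured. Phenylalanine is turned by PAL, C4H and 4CL into coumaroyl-CoA, from which CHS starts the flavonoid branch and from which HCT and C3H1 lead toward lignin and sinapate esters. PAL1 was at 65.4, 46.9, 42.8 and 52.7 FPKM in Col-0 and 190.1, 156, 166 and 124 in BBX32-10. C4H was at 59.1, 54.7, 52.4 and 61.3 FPKM and 151, 134, 157 and 115. The flavonoid-specific ligase 4CL3 was at 14.7, 11.8, 12.8 and 12.8 FPKM and 62.9, 49.4, 56.2 and 33.6. All BBX32-10 libraries lay above all Col-0 libraries for these 3 genes, as for 30.6% of all tested genes. The log2 changes of the 3 were 1.60, 1.27 and 1.85 (limma adjusted p 3.01e-06, 3.47e-08 and 3.94e-08). Of 17 tested genes of this list 14 were called higher, with a median change of 1.01. SNG1, the enzyme that makes sinapoyl malate, was the one fall, from 168 ± 20.3 to 117 ± 10.5 FPKM. 4CL1, a ligase used for lignin as well, rose from 53.0 ± 1.88 to 157 ± 15.0 FPKM. The xylem marker sums given above moved in the same direction.

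Genes that make and decorate anthocyanin were higher at every tested step. CHS (AT5G13930, chromosome 5, 4488476 to 4490264), the entry enzyme, was at 375, 259.8, 285 and 275 FPKM in Col-0 and 987, 799.7, 917 and 644 in BBX32-10 (log2 change 1.48, SE 0.23, limma adjusted p 3.02e-05). CHI, which closes the flavanone ring, was at 26.2, 20.1, 17.8 and 20.3 FPKM and 117, 100.0, 109 and 78.4, and its helper CHIL rose from 38.5 ± 3.81 to 117 ± 29.0 (SD, n = 4). F3'H (AT5G07990, chromosome 5, 2560328 to 2563137; listed as CYP75B1), which adds the hydroxyl group of cyanidin-type pigments, was at 14.2, 4.60, 3.41 and 9.94 FPKM and 59.5, 51.1, 81.3 and 46.5 (log2 change 2.89, SE 0.42, limma adjusted p 1.18e-05). These 4 early genes kept the genotypes apart in every library.

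The late genes varied widely among wild-type plants. DFR (AT5G42800, chromosome 5, 17164093 to 17166032) was at 109, 27.5, 21.0 and 75.8 FPKM in Col-0 and 215, 170.4, 269.9 and 169 in BBX32-10. LDOX was at 107, 27.9, 22.1 and 77.4 FPKM and 222, 198, 297 and 182. UGT78D2, a flavonoid 3-O-glucosyltransferase gene that serves both anthocyanins and flavonols, was at 48.3, 26.4, 25.7 and 40.0 FPKM and 222, 193, 199 and 146. Col-0 replicates 1 and 4 were the highest wild-type plants for DFR and LDOX, well above replicates 2 and 3, yet still below every BBX32-10 plant. The log2 changes of these genes were 2.08, 2.19 and 2.43 (SE 0.53, 0.48 and 0.19, limma adjusted p 0.00312, 0.001 and 3.27e-09). A stretch of 321 bases of LDOX is 96.0% identical to AT4G22870, so fragments may be shared between them. The decorating enzymes UGT75C1, UGT79B1, 5MAT, 3AT1, 3AT2 and SAT and the glutathione transferase GSTF12, needed to bring anthocyanin to the vacuole, rose by 1.71 (SAT) to 2.49 (3AT1). Of these, 3AT1 is 96.7% identical over 1244 bases to AT1G03495, which is 3AT2, and UGT75C1 overlaps antisense genes over 14.0% and 13.2% of its length.

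On the flavonol side, apart from the shared UGT78D2, calls were few. FLS1, which competes with DFR for dihydroflavonols, was at 36.2, 53.2, 57.0 and 41.9 FPKM in Col-0 and 81.5, 71.2, 71.7 and 33.9 in BBX32-10. Replicate 4 of BBX32-10 lay below every wild-type plant while the other 3 lay above them all, and FLS1 was not called (log2 change 0.40, SE 0.42, limma adjusted p 0.473). The flavonol glycosyltransferase gene UGT78D1 changed by 0.29 (limma adjusted p 0.0493), was not called after rescaling and overlapped between genotypes, and RHM1, which makes UDP-rhamnose, was at 93.5 ± 5.81 and 102 ± 11.7 FPKM without a call. BGLU10, an anthocyanin glucosyltransferase whose sequence is 92.3% identical to that of AT4G27820 over 1709 bases, rose by 0.58. Of 23 genes on the list 18 were tested, 16 were called higher and none lower (15 and 0 after rescaling), with a median change of 2.09 against 0.10 over all tested genes. Among the 5 not tested, BAN, UGT78D3 and TT12 were near 0. F3H was listed at no more than 0.0394 FPKM and UGT89C1 at 0 in all 8 libraries. An antisense gene covers 94.5% of F3H and 99.6% of UGT89C1 in the annotation. How fragments in such overlaps were counted was not given in the sources used here, and its part in these low values was not tested.

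**Figure D2:**
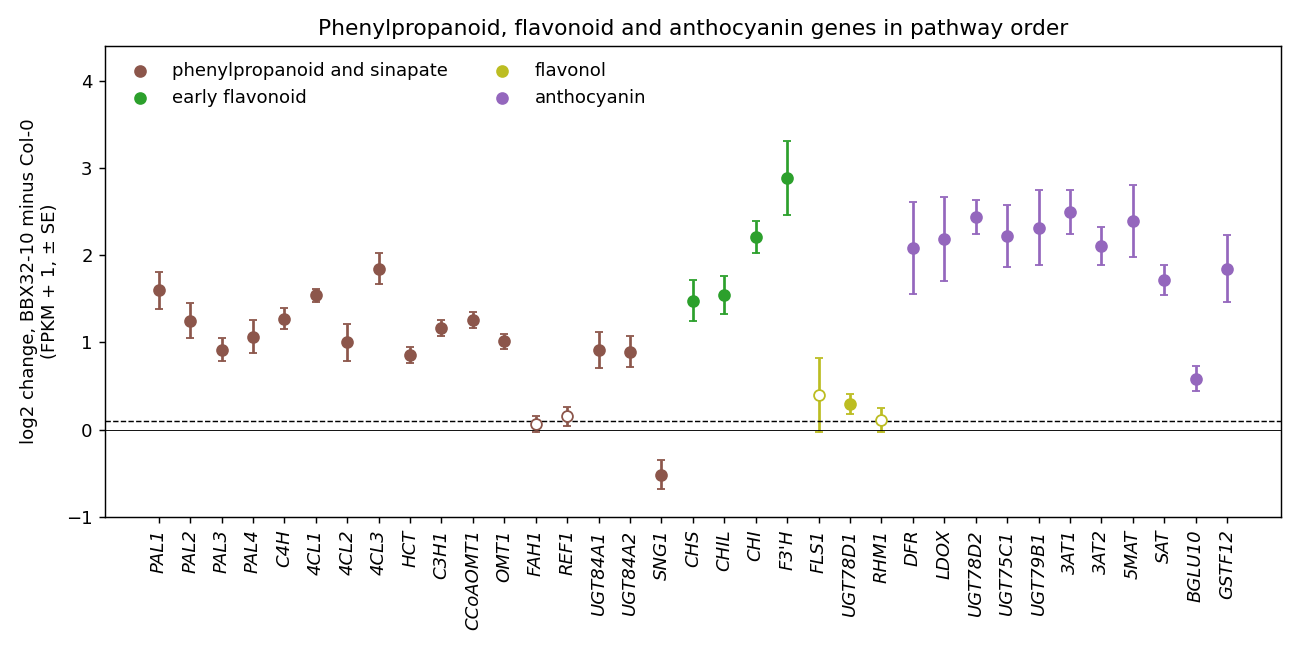
Log2 change of FPKM + 1 (BBX32-10 minus Col-0, points, with bars of 1 SE) for genes of phenylpropanoid, flavonoid and anthocyanin synthesis, ordered from the first step to the last, filled where called. The dashed line is the median of all tested genes, 0.10. Changes run from -0.52 (SNG1) to 2.89 (F3'H). The genes coloured as anthocyanin genes, which include the shared UGT78D2, lie between 0.58 (BGLU10) and 2.49 (3AT1).

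Among transcription factors of the pathway, several activators of anthocyanin genes rose and repressors moved both ways. MYB75 (AT1G56650, chromosome 1, 21233555 to 21235292), also called PAP1, was at 37.1, 18.4, 27.4 and 38.4 FPKM in Col-0 and 136, 125, 103 and 113 in BBX32-10 (log2 change 1.99, SE 0.26, limma adjusted p 2.56e-06). Its bHLH partner TT8 was at 3.23, 0.823, 1.06 and 2.52 FPKM and 10.4, 10.0, 14.4 and 8.60 (log2 change 2.09), the highest wild-type plants again being replicates 1 and 4. MYB90 (PAP2) was at 0 to 0.165 FPKM in Col-0 and 1.36 to 1.88 in BBX32-10. Both MYB75 and MYB90 share 263 to 269 bases of over 90% identity with AT1G66380. The repressor MYBL2 fell from 59.5 ± 4.57 to 35.9 ± 3.22 FPKM and LBD38, a nitrate-responsive repressor, from 8.43 ± 1.53 to 5.80 ± 0.874, but its relative LBD39 rose from 10.3 ± 0.488 to 22.2 ± 1.32 (SD, n = 4; limma adjusted p 0.00129, 0.0123 and 5.26e-05). MYB4, a repressor of C4H, rose from 6.64 ± 0.705 to 15.0 ± 0.394 FPKM. TTG1, the WD40 protein of the same complex, fell from 29.6 ± 3.25 to 20.5 ± 2.31 FPKM.

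The 3 flavonol regulators went separate ways. MYB111 was at 0.831, 1.11, 0.840 and 0.916 FPKM in Col-0 and 4.90, 4.70, 5.41 and 4.64 in BBX32-10 (log2 change 1.62, limma adjusted p 9.76e-06). MYB11 was at 0.411 to 0.890 FPKM in Col-0 and 0.0323 to 0.158 in BBX32-10, and MYB12 at 0.624 to 0.826 and 0.0436 to 0.378. For MYB11 and MYB12 every BBX32-10 library was below every Col-0 library, but levels were too low to be tested, and an antisense gene covers 25.3% of MYB11. Of 15 tested regulators 6 were called higher and 3 lower, beside 25.8% and 16.7% of all tested genes. Their median change was 0.10, as over all tested genes. CPC, EGL3, GL3, LBD37, MYB7 and MYB113 were not called, and MYB114 was too low to test.

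Upstream sequences are shown for flavonoid genes because HY5 is known to bind the G-box, CACGTG, in such promoters. In the 250 bases before the annotated gene start (RefSeq, TAIR10.1), CACGTG stood in 5 of 18 tested flavonoid genes (CHS, CHIL, SAT, DFR and UGT79B1) and in 7.45% of all 17672 tested genes with such a window. The motif reads the same on both strands. The G-box is in capitals in these 3 examples, written 5′ to 3′ toward the gene start.
CHS, chr5:4488226-4488475, plus strand: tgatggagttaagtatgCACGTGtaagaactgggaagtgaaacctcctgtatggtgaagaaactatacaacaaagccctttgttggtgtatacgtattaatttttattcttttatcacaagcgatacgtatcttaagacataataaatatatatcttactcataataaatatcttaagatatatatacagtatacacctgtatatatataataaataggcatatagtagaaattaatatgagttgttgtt
DFR, chr5:17166033-17166282, minus strand: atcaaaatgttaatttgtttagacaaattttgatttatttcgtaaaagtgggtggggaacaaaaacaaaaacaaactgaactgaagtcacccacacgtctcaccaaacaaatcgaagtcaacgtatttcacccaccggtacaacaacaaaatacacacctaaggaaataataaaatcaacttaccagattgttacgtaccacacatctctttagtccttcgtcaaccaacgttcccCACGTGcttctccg
UGT79B1, chr5:21938397-21938646, minus strand: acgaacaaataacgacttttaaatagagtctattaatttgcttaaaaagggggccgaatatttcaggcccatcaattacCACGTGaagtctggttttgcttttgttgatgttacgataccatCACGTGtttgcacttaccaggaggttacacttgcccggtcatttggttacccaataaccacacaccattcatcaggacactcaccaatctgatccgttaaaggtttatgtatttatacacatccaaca
The G-box was found upstream of genes in other lists as well. It stood upstream of 5 of 20 tested antenna genes, 8 of 24 clock genes and ELIP1. ELIP2 and the 11 genes of the HY5 and COP1 module had none. Presence of the G-box was not compared with the direction of change gene by gene. A match describes these letters only.

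Several photoprotection genes rose. The early light-induced proteins bind pigments in thylakoids under excess light. ELIP1 (AT3G22840, chromosome 3, 8084405 to 8085669) was at 26.0, 32.7, 43.1 and 26.7 FPKM in Col-0 and 210.4, 193, 189 and 116 in BBX32-10. ELIP2 (AT4G14690, chromosome 4, 8418242 to 8419325) was at 3.04, 6.44, 12.4 and 3.29 FPKM and 87.0, 69.0, 60.2 and 35.2. In both genes BBX32-10 replicate 4 was the lowest of its group but well above the highest wild-type plant, with log2 changes of 2.42 and 3.24 (SE 0.46 and 0.69, limma adjusted p 0.000236 and 0.000666). PSBS, required for rapid quenching of excess excitation, was at 1369, 1576, 1790.1 and 1561 FPKM in Col-0 and 2879, 2800.0, 2744 and 2893 in BBX32-10, a log2 change of 0.85. The related stress-enhanced gene SEP2 rose by 0.68, OHP2 by 0.43 and LIL3.1 by 0.34, although LIL3.1 was not called after rescaling. Violaxanthin de-epoxidase, VDE, fell from 48.8 ± 2.85 to 36.9 ± 2.04 FPKM, and ZEP, which reverses its reaction, was at 251 ± 17.3 and 247 ± 13.1 without a call. Antisense genes cover 11.1% of SEP2, 14.9% of VDE, 25.6% of LIL3.1 and up to 31.6% of OHP2. OHP1, SEP1 and LIL3.2 were not called, which leaves 6 of 11 genes higher and 1 lower (5 and 1 after rescaling).

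Of 23 tested genes of reactive oxygen scavenging and signalling 8 were called higher and 5 lower (7 and 5 after rescaling). These were 34.8% and 21.7% of the list, beside 25.8% and 16.7% of all tested genes. VTC2, which commits to ascorbate synthesis, was at 245, 204, 229 and 219 FPKM in Col-0 and 696, 626, 502 and 547 in BBX32-10. Cytosolic ascorbate peroxidase, APX1, was at 516, 476, 503 and 488 FPKM and 1161, 1217, 1095 and 1179. Their log2 changes were 1.39 and 1.23 (SE 0.12 and 0.09, limma adjusted p 5.5e-09 and 1.53e-09). Among the signalling genes, SIB1, a plastid and nuclear regulator of WRKY33, and the zinc finger gene ZAT7 fell, from 56.5 ± 7.23 to 3.69 ± 1.57 and from 7.45 ± 3.96 to 1.26 ± 1.15 FPKM. Without BBX32-10 replicate 1, the highest, the ZAT7 mean of that group was 0.801.

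Genes of the light-harvesting antenna were lower, by unequal amounts. LHCB4.3, a minor antenna isoform, was at 57.2, 69.2, 78.0 and 56.3 FPKM in Col-0 and 13.0, 11.3, 10.1 and 11.8 in BBX32-10 (log2 change -2.39, SE 0.35, limma adjusted p 1.14e-05). LHCB2.3 was at 1423, 1618, 1865 and 1638 FPKM and 824, 829, 659 and 852 (log2 change -1.05). LHCB1.4 (listed as LHB1B1) fell from 3497 ± 251 to 1328 ± 155 FPKM, but it is 91.6% identical over 806 bases to LHCB1.5, which was listed at 0 throughout and lies wholly under an antisense gene. The photosystem I antenna genes LHCA1 to LHCA4 fell by 0.42 to 0.59 and the photosystem II antenna genes LHCB3, LHCB4.1, LHCB4.2, LHCB5 and LHCB6 by 0.30 to 0.46. LHCB1.1 fell by 0.30 and LHCB2.1 by 0.24, the latter a call that held in 3 of 8 leave-one-out fits. The most abundant member, LHCB1.3, was at 16829 ± 889.9 FPKM in Col-0 and 16709 ± 731 in BBX32-10 and was not called, nor were LHCB1.2, LHCB2.2, LHCA5 or LHCA6. LHCB7, a rare member, rose from 19.2 ± 1.92 to 31.0 ± 3.25 FPKM. In all, 14 of 20 tested genes were called lower and 1 higher, with a median change of -0.36. Mesophyll marker sums, which include LHCB3 and LHCB6, are given above, and the part of cell composition was not tested. An antisense gene covers 37.6% of LHCB2.3. Similar transcripts join LHCB1.1 to LHCB1.2 and LHCB1.3, and LHCB2.1 to LHCB2.2, so values within these groups are uncertain.

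Nuclear genes for photosystem and electron transport subunits were called lower in 17 of 31 cases and higher in 2. FNR2 and PETE1, a ferredoxin reductase and a plastocyanin, fell from 695 ± 28.5 to 372 ± 30.4 and from 300.1 ± 8.00 to 163 ± 14.0 FPKM (SD, n = 4; limma adjusted p 0.000232 and 3.65e-09). Ferredoxin FD1 rose from 275 ± 18.5 to 519 ± 32.5 FPKM. Chlorophyll synthesis genes were called higher in 2 of 24 cases and lower in 12 (1 and 12 after rescaling). PORB, a protochlorophyllide reductase, was at 642, 677, 632 and 718 FPKM in Col-0 and 220.4, 192, 258 and 248 in BBX32-10 (log2 change -1.54, SE 0.18, limma adjusted p 6.09e-07). Its relative PORA was at 4.09 to 7.04 FPKM in Col-0 and 0.0867 to 0.819 in BBX32-10 (log2 change -2.14). CHLH, a subunit of magnesium chelatase, went the other way, from 549 ± 30.2 to 899.5 ± 74.7 FPKM (limma adjusted p 2.08e-05). Of 20 Calvin-Benson cycle genes 4 were called higher and 1 lower, beside 25.8% and 16.7% of all tested genes. After rescaling 1 was higher and 2 lower. The small Rubisco subunit gene RBCS1B rose from 634 ± 42.6 to 1095 ± 85.5 FPKM while RBCS3B fell from 5106 ± 379 to 3841 ± 481, and fragments may be shared among these similar genes.

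**Figure D3:**
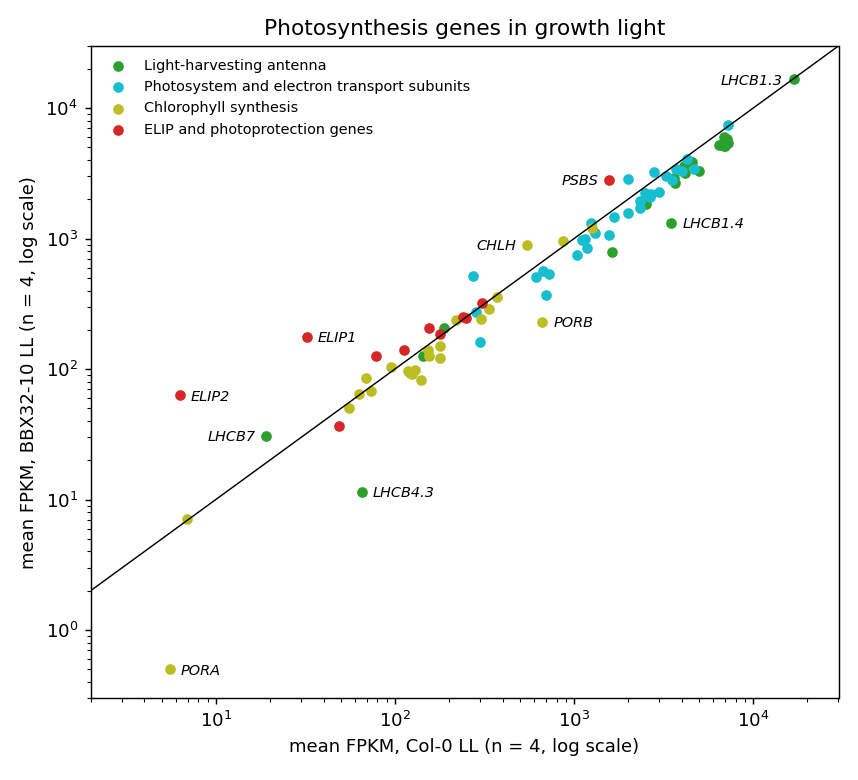
Mean FPKM in Col-0 (horizontal, logarithmic) against mean FPKM in BBX32-10 (vertical, logarithmic) for tested genes of the antenna, photosystem, chlorophyll synthesis and photoprotection lists, with the line of equal levels. Antenna genes lie on or below the line, except LHCA5 and LHCB7, while ELIP1, ELIP2 and PSBS lie above it; LHCB4.3 and PORA lie farthest below.

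Of 11 tested regulators of plastid genes 5 were called higher and 1 lower (4 and 1 after rescaling). The counts of this paragraph before rescaling stand beside 25.8% higher and 16.7% lower among all tested genes. GNC and CGA1, GATA factors that promote chlorophyll accumulation, were at 20.2, 21.6, 19.9 and 20.5 FPKM and 4.12, 4.51, 4.09 and 3.22 FPKM in Col-0. In BBX32-10 they were at 49.3, 47.7, 48.6 and 48.5 and 15.8, 17.8, 14.1 and 12.6, for log2 changes of 1.20 and 1.69 (limma adjusted p 1.15e-11 and 2.06e-08). The plastid sigma factor SIG5 rose by 0.89 and GLK1 by 0.41, while GLK2 fell by 0.24. In carotenoid synthesis BCH1, a beta-carotene hydroxylase, rose from 17.5 ± 2.14 to 56.7 ± 8.60 FPKM, and the carotenoid cleavage dioxygenase CCD4 fell from 217 ± 25.5 to 75.2 ± 13.4 (SD, n = 4; limma adjusted p 2.65e-07 and 1.38e-07). Of 23 tested genes of carotenoid and tocopherol synthesis 11 were called higher and 5 lower (8 and 5 after rescaling).

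Genes that respond to salicylate, the hormone of defence against biotrophic pathogens, fell steeply. PR1 (AT2G14610, chromosome 2, 6241640 to 6242541) was at 748, 665, 225 and 164 FPKM in Col-0 and 9.27, 17.4, 18.5 and 27.5 in BBX32-10. PR2 (listed as BGL2), a glucanase, was at 1198, 506, 265 and 328 FPKM and 25.7, 26.7, 11.7 and 15.5. PR5, a thaumatin-like protein, was at 767, 544, 269.6 and 197 FPKM and 9.84, 11.1, 8.64 and 6.26. Wild-type plants differed several-fold among themselves, replicates 1 and 2 being high for PR1, PR2 and PR5, but the lowest of them exceeded the highest BBX32-10 plant in each gene. Ratios of the Col-0 mean to the BBX32-10 mean were 24.8, 28.9 and 49.6 (log2 changes -4.36, -4.60 and -5.30, SE 0.62, 0.57 and 0.56, limma adjusted p 8.22e-06, 1.43e-06 and 1.42e-07). Without Col-0 replicate 1 the ratio for PR2 was 18.4.

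PCR1 (AT1G14880, chromosome 1, 5132506 to 5133860), a cadmium resistance protein, had the largest fall of all tested genes on the log2(FPKM + 1) scale, from 788, 764, 295 and 199 FPKM to 4.74, 4.98, 3.51 and 2.71 (log2 change -6.47, SE 0.68). PCC1, LURP1 and AED1, genes known from pathogen and systemic responses, fell from 999 ± 170.5, 590.2 ± 149 and 236 ± 92.8 FPKM to 57.6 ± 38.8, 33.7 ± 8.94 and 11.4 ± 2.02, although PCC1 is 99.4% identical over 344 bases to AT3G22235. The secreted peptide gene PNP-A fell by 3.57, the glucanase gene BG3 by 4.69, the wall-associated kinase gene WAK1 by 2.61 and ACD6 by 2.62. The receptor NPR1 fell from 18.0 ± 1.23 to 10.8 ± 0.685 FPKM, NPR3 from 11.8 ± 2.04 to 5.86 ± 1.33 and NPR4 from 20.3 ± 1.62 to 7.87 ± 1.08 (SD, n = 4; limma adjusted p 2.19e-05, 1.92e-05 and 3.99e-09). NIMIN1 and NIMIN2, which bind NPR1, fell by 2.59 and 2.36, and the salicylate-responsive WRKY70, WRKY54, WRKY38, WRKY62 and WRKY18 by 0.91 to 2.91, with overlapping libraries for WRKY62 and WRKY18. The ratio of the WRKY62 means, 3.45, was 2.18 without Col-0 replicate 1 and 5.29 without BBX32-10 replicate 1. GRXC9 fell by 1.19. AZI1 rose by 1.11 with overlapping libraries and a ratio of means of 2.31, or 3.69 without Col-0 replicate 4, and EARLI1 was not called. Over this list, 21 of 23 tested genes were called lower and 1 higher, with a median change of -2.59 against 0.10 over all tested genes.

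Most genes on the list of salicylate synthesis and signalling were lower as well. The list also holds genes that hydroxylate salicylate or make pipecolic acid, and these count in its median. On the isochorismate route ICS1 and PBS3 fell and EPS1 rose. ICS1, the isochorismate synthase of the main route, was at 23.7, 21.1, 14.7 and 13.4 FPKM in Col-0 and 9.52, 8.25, 8.47 and 8.02 in BBX32-10 (log2 change -0.98, limma adjusted p 8.48e-05). The transcription factor gene SARD1 was at 16.5, 18.9, 12.4 and 9.77 FPKM and 2.75, 1.67, 2.43 and 1.72. EDS1 and PAD4, partners in immune signalling, fell from 21.6 ± 3.42 and 30.9 ± 5.42 to 6.69 ± 0.879 and 9.19 ± 0.971 FPKM. CBP60G fell by 1.61, SAG101 by 0.87, NDR1 by 2.02 and SARD4 by 1.58. PBS3, which joins glutamate to isochorismate, was at 9.51 ± 3.57 FPKM in Col-0 and 5.69 ± 1.80 in BBX32-10, with overlapping libraries and a call that held in 3 of 8 leave-one-out fits. ALD1, which starts the synthesis of pipecolic acid, was at 3.13 to 16.9 FPKM in Col-0 and 0.0163 to 0.173 in BBX32-10. S3H (listed as DLO1) and DMR6, which hydroxylate salicylate, fell from 49.3 ± 28.2 and 122 ± 43.5 to 0.998 ± 0.563 and 10.3 ± 3.78 FPKM. EPS1, which acts at the last step of the isochorismate route, rose from 3.14 ± 0.720 to 6.67 ± 0.470 FPKM (limma adjusted p 8.01e-05). EDS5, BSMT1, UGT74F2 and UGT76B1 were not called and FMO1 was too low to test, leaving 12 of 17 tested genes lower and 1 higher at a median of -1.55. SARD1 overlaps an antisense gene over 14.3% of its length, NDR1 is 90.7% identical over 567 bases to AT3G20590, and ICS1 shares 122 bases of 91.8% identity with AT1G35513.

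**Figure D4:**
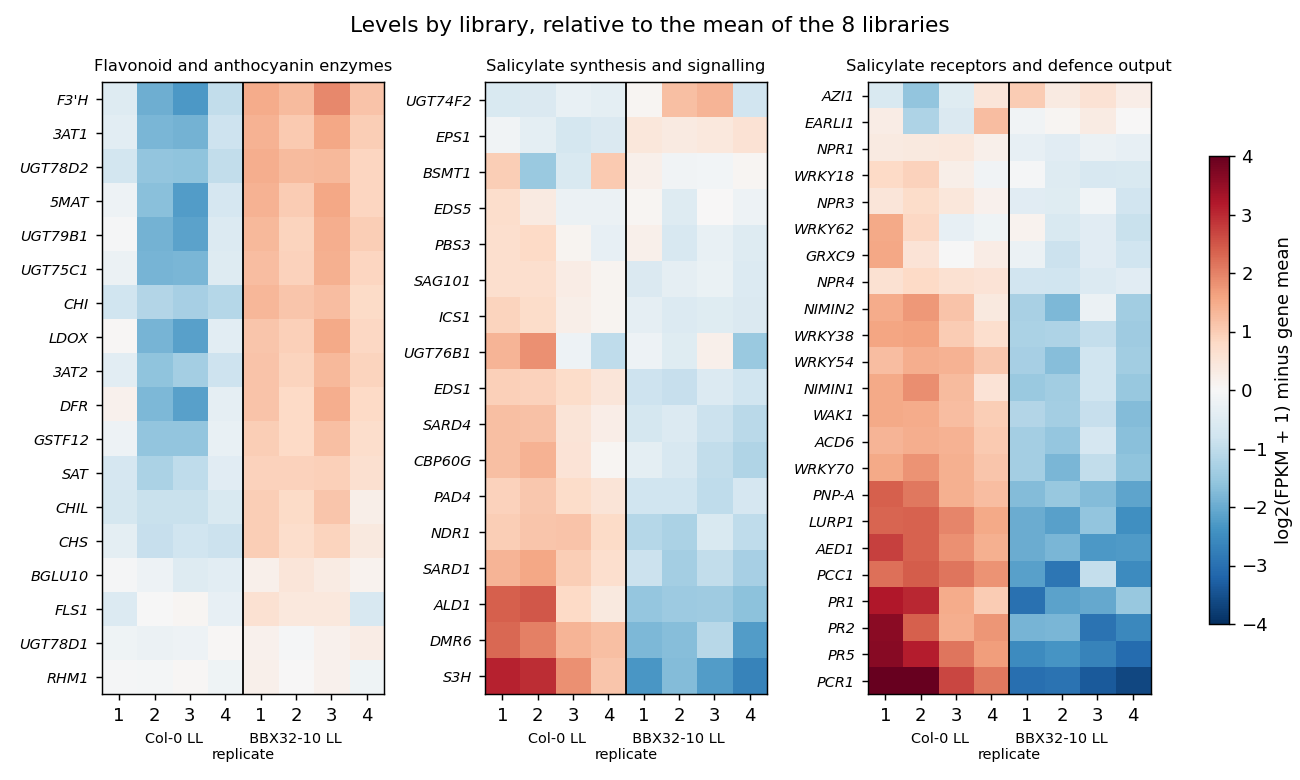
Level of each gene in each of the 8 libraries, as log2(FPKM + 1) minus the gene's mean over the 8 libraries (colour scale from -4 to 4, values beyond it shown at its ends), for tested genes of the flavonoid enzyme, salicylate synthesis and defence output lists. Col-0 replicates 1 and 2 carry the highest PR gene levels and replicates 1 and 4 the highest late anthocyanin gene levels of the wild type, and the genotypes separate for most genes shown.

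Immune receptor families were lower with them. Of 31 tested cysteine-rich receptor-like kinase genes, 23 were called lower and 1 higher, with a median change of -1.15. CRK4 and CRK6 fell from 39.3 ± 13.9 and 30.8 ± 11.1 to 1.22 ± 0.286 and 2.72 ± 0.728 FPKM, and CRK7 and CRK24 by 2.70 and 2.51. Among 55 tested NLR genes, intracellular receptors of pathogen effectors, 41 were called lower and 1 higher, at a median of -0.61, and that 1 rise was not called after rescaling. AT5G45000 fell from 3.65 ± 0.515 to 0.252 ± 0.104 FPKM and AT5G41740 from 8.36 ± 0.681 to 1.90 ± 0.206. Of 33 receptor-like proteins, which sense molecules outside the cell, 17 were called lower and 6 higher. AtRLP23 fell from 27.2 ± 10.0 to 1.32 ± 0.440 FPKM and AtRLP19 from 26.3 ± 3.43 to 2.41 ± 0.449. Several of these genes lie in clusters of similar copies, and fragments may be shared among them, as between CRK6 and AT4G23160 (93.8% identity over 838 bases). An antisense gene covers 28.9% of AT5G45000.

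WRKY genes were called lower in 19 of 44 cases and higher in 6, NAC genes in 17 and 6 of 45, and ERF and DREB genes in 18 and 8 of 48 (20 and 5 after rescaling), against 16.7% and 25.8% of all tested genes. WRKY51 fell from 7.33 ± 2.00 to 0.476 ± 0.397 FPKM. The NAC genes anac036, NAC090 and NAC004 fell by 2.13, 1.96 and 1.77. The mean of NAC004 in BBX32-10 was 0.131 FPKM, and 0.0548 without replicate 3. ERF107 and ERF15 fell from 26.5 ± 3.40 and 26.0 ± 2.30 to 4.47 ± 1.08 and 5.59 ± 0.521 FPKM.

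The plant defensin genes PDF1.2A, PDF1.2B, PDF1.2C and PDF1.3 of the ethylene and jasmonate branch were near or at 0 in BBX32-10. Of 10 genes on the list of this branch 7 were tested. Of these, 5 were called lower, none higher and 2 were not called, beside 16.7% lower and 25.8% higher among all tested genes. PDF1.2A was at 123, 18.1, 32.0 and 88.8 FPKM in Col-0, and in BBX32-10 it was listed at 0 in 3 libraries and at 0.376 in the other. PDF1.2B was at 23.4, 2.35, 2.45 and 11.7 FPKM in Col-0, PDF1.2C at 34.8, 1.55, 4.06 and 22.9 and PDF1.3 at 7.74, 2.84, 2.53 and 6.41, and each was at 0 in all BBX32-10 libraries. At 3 fragments per library those zeros put the fall of PDF1.2B, PDF1.2C and PDF1.3 at no less than 82.5, 118 and 41.1-fold, counting error alone considered, and at no less than 45.5, 70.8 and 33.1-fold without Col-0 replicate 1. PR4 (listed as HEL) fell from 98.5 ± 37.2 to 23.7 ± 32.0 FPKM with overlapping libraries. BBX32-10 replicate 3 was the high one, and without it the BBX32-10 mean was 7.97. Col-0 replicates 1 and 4 were again the highest plants for all 4 defensin genes. Genes of jasmonate synthesis and signalling, in contrast, were called in 4 of 33 cases, beside 42.5% of all tested genes, with OPCL1, MYC3 and JAR1 lower and ACX1 higher (0 and 3 after rescaling). The ACX1 call ended after rescaling (limma adjusted p 0.0972) and held in 3 of 8 leave-one-out fits. OPCL1 fell from 67.6 ± 19.5 to 36.4 ± 7.05 FPKM. MYC2 was listed at 0 throughout and is covered over 98.5% of its length by an antisense gene.

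Aliphatic glucosinolate synthesis was higher along the whole pathway. These sulphur-rich defence compounds of the mustard family are made from methionine by chain elongation, core synthesis and side-chain oxidation under the control of MYB28, MYB29 and MYB76. CYP79F2, a core enzyme, was at 2.85, 2.36, 2.87 and 2.35 FPKM in Col-0 and 8.72, 10.0, 9.03 and 12.4 in BBX32-10 (log2 change 1.61, SE 0.12, limma adjusted p 1.61e-09). IPMI-SSU3, of chain elongation, was at 83.0, 62.5, 79.4 and 80.5 FPKM and 205, 219.7, 181 and 216. BAT5, a plastid transporter of the keto acid intermediates, rose from 33.0 ± 5.18 to 74.8 ± 3.69 FPKM and the side-chain oxidase gene FMO-GSOX3 from 48.5 ± 4.49 to 111 ± 7.44. Of 26 tested genes 23 were called higher and none lower, with a median change of 0.98, and 10 rose at least 2-fold. CYP79F2 is 92.0% identical over 1593 bases to its neighbour CYP79F1, so the split between them is uncertain. Phloem marker sums, which moved the same way, are given above, and their part was not tested.

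Indole glucosinolate and camalexin genes split. CYP79B2 and CYP79B3, which make indole acetaldoxime, rose from 32.5 ± 13.0 and 32.2 ± 12.6 to 90.5 ± 11.3 and 86.6 ± 18.9 FPKM, and the glucosyltransferase UGT74B1 from 38.5 ± 3.10 to 81.3 ± 7.40. PEN2, the myrosinase of pathogen-triggered breakdown, fell from 78.2 ± 7.11 to 37.8 ± 0.864 FPKM (SD, n = 4; limma adjusted p 4.58e-07). In all, 7 of 20 tested genes were called higher and 3 lower, beside 25.8% and 16.7% of all tested genes. Sulfate assimilation, which supplies both branches, had 7 of 14 genes called higher and 1 lower (4 and 2 after rescaling). SIR, sulfite reductase, rose from 127 ± 7.10 to 230.4 ± 12.4 FPKM and APR1 from 75.7 ± 7.29 to 137 ± 11.2, whereas GGCT2;1, of glutathione breakdown, fell from 8.04 ± 3.25 to 4.46 ± 1.28.

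SAUR genes, whose proteins promote cell expansion, were mostly lower. Of 27 tested SAUR genes 20 were called lower and 1 higher, 15 of the falls being at least 2-fold, with a median change of -1.08. SAUR21 was at 11.4, 11.3, 13.7 and 11.1 FPKM in Col-0 and 1.89, 2.07, 2.14 and 2.75 in BBX32-10. SAUR20 fell from 14.8 ± 1.45 to 4.48 ± 1.14 FPKM and SAUR22 from 2.81 ± 1.03 to 0.317 ± 0.457, or 0.0908 without BBX32-10 replicate 4. SAUR20 shares 490 bases of 90.6% identity with AT5G18080, so fragments may be shared. Aux/IAA repressor genes were called higher in 4 of 21 cases and lower in 8 (3 and 9 after rescaling), the falls including IAA6 (3.50 ± 0.627 to 0.440 ± 0.255 FPKM) and IAA29 (2.41 ± 0.348 to 0.362 ± 0.192). Among phytochrome-interacting factor and shade genes, 1 of 9 was higher and 5 lower (0 and 5 after rescaling). PIF4 was at 75.2, 73.2, 70.7 and 77.4 FPKM in Col-0 and 45.1, 44.0, 46.0 and 59.0 in BBX32-10, and PAR2, a shade-induced bHLH gene, fell from 5.41 ± 0.405 to 2.28 ± 0.367 (limma adjusted p 0.00473 and 9.35e-07). Expansins, which loosen cell walls, moved both ways. EXPA8 and EXPA11 fell by 1.94 and 1.36 and EXPA16 and EXLB1 rose by 2.12 and 1.76, with 7 of 18 called higher and 3 lower (6 and 4 after rescaling). The counts of this paragraph before rescaling stand beside 25.8% higher and 16.7% lower among all tested genes.

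**Figure D5:**
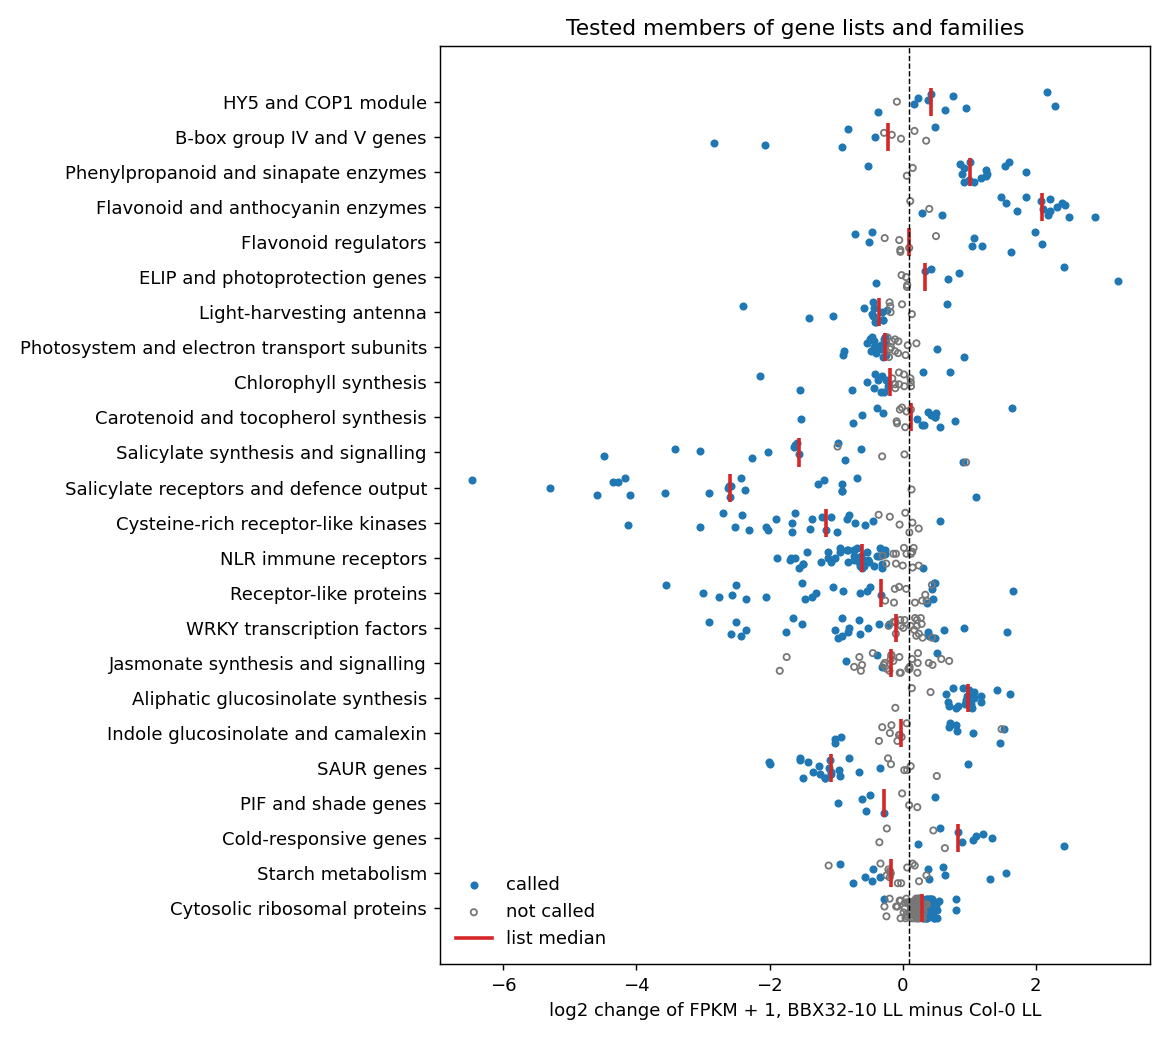
Log2 change (BBX32-10 minus Col-0) of every tested member of 24 gene lists and families, 1 point per gene (filled where called), with the list median as a vertical tick and the median of all tested genes, 0.10, as a dashed line. List medians run from -2.59 for defence output to 2.09 for flavonoid enzymes; BBX32 itself, at 7.64, is left out.

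Photoreceptor and clock genes moved in both directions. CRY1, a blue-light receptor, fell from 70.6 ± 1.14 to 47.1 ± 3.49 FPKM, while PHOT2, which directs chloroplast movement, rose from 76.6 ± 5.58 to 121 ± 5.08 and PHYD from 4.34 ± 0.145 to 6.19 ± 0.431 (SD, n = 4; limma adjusted p 3.82e-05, 7.67e-06 and 0.00246). All plants were listed under the same day length. High light was listed as starting 1 h after dawn and lasting 3.5 h. The hour of harvest of each plant was not given in the sources used here. Of 24 tested clock genes 10 were called higher and 4 lower (7 and 4 after rescaling), beside 25.8% and 16.7% of all tested genes. RVE8, a morning activator, rose from 9.14 ± 1.25 to 19.8 ± 1.62 FPKM, and PRR5, which represses it, fell from 5.04 ± 1.39 to 1.93 ± 0.844. PRR3 rose from 0.591 ± 0.214 to 2.01 ± 0.455 FPKM. CHE, a repressor of CCA1, fell from 61.0 ± 4.19 to 33.8 ± 1.83 FPKM. Of 5 tested flowering genes 3 were called higher and 2 lower, at a median change of 0.43. Among them SOC1, an activator, was at 42.0, 34.9, 34.0 and 32.6 FPKM in Col-0 and 12.0, 9.74, 10.6 and 9.83 in BBX32-10 (log2 change -1.67, SE 0.19, limma adjusted p 5.91e-07). The repressor SVP fell by 0.45, and the repressor FLC, scarce in both, rose from 0.136 to 0.365 to 0.493 to 2.20 FPKM. Antisense genes cover FLC wholly and PHOT2 over 29.7% of its length.

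Most cold-responsive genes were called higher, many with overlapping libraries, whereas the CBF genes known to activate them were not called. KIN1 was at 17.0, 12.9, 31.5 and 26.6 FPKM in Col-0 and 147, 166, 111 and 67.4 in BBX32-10, and KIN2 at 829.8, 687, 862 and 743 FPKM and 1914, 2103, 2183 and 1751. The cryoprotective COR15A rose from 754 ± 187 to 1725 ± 252 FPKM and LTI30 by 1.09, with overlapping libraries and a call that held in 3 of 8 leave-one-out fits. Of 13 tested genes 9 were called higher and none lower at a median of 0.84, and 8 were called higher after rescaling. For 4 of the 13 all BBX32-10 libraries lay above all Col-0 libraries, beside 30.6% of all tested genes. CBF2 was at 3.15 ± 1.04 and 2.48 ± 0.636 FPKM and CBF3 at 9.69 ± 1.07 and 7.47 ± 1.62. KIN1 and KIN2 are 92.1% identical over 505 bases. In abscisic acid signalling the phosphatase genes HAI1 and HAB1 rose by 1.27 and 0.94 and the transcription factor gene ABF3 by 0.82, while ABA2, of abscisic acid synthesis, fell by 0.76; an antisense gene covers 18.8% of it. Heat shock genes were called higher in 4 of 23 cases and lower in 2 (3 and 2 after rescaling), beside 25.8% and 16.7% of all tested genes. HSP70-4 (listed as MED37C) rose from 3.97 ± 0.354 to 21.6 ± 2.97 FPKM, and HSFB2A fell from 3.70 ± 0.581 to 1.91 ± 0.260.

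Starch and nutrient genes moved in both directions. The starch and sugar transporter counts before rescaling stand beside 25.8% higher and 16.7% lower among all tested genes. BAM3, the main beta-amylase of leaf starch breakdown, was at 78.6, 72.2, 72.2 and 64.6 FPKM in Col-0 and 258, 254, 176 and 178 in BBX32-10, and BAM9, an inactive relative, rose by 1.31, while DPE2, which uses the maltose released, fell from 121 ± 6.71 to 62.5 ± 0.938. The starch list had 6 of 27 genes higher and 6 lower (5 and 7 after rescaling). Antisense genes cover 21.2% of BAM3 and 63.5% of FER1. FER1, an iron-storing ferritin, was at 136, 95.4, 128 and 96.2 FPKM in Col-0 and 357, 411, 328 and 510.5 in BBX32-10. The iron transporter gene OPT3 and the reductase gene FRO3 fell from 52.1 ± 3.83 and 6.52 ± 0.726 to 30.6 ± 2.92 and 2.04 ± 0.576 FPKM. LPR1, a ferroxidase known from root responses to low phosphate, rose from 1.11 ± 0.340 to 6.32 ± 0.920 FPKM and its homologue LPR2 fell from 33.8 ± 6.57 to 16.6 ± 1.61. UPM1, of sirohaem synthesis for nitrite and sulfite reductases, rose from 28.7 ± 3.16 to 70.9 ± 7.63 FPKM, and the cytosolic glutamine synthetase gene GLN1;1 fell from 130.3 ± 34.2 to 41.6 ± 4.71. Sugar transporter genes were called higher in 6 and lower in 9 of 22 cases (5 and 10 after rescaling). SWEET11 and SWEET12, which release sucrose for phloem loading, rose from 34.8 ± 6.92 and 8.38 ± 4.32 to 109 ± 5.78 and 22.0 ± 2.39 FPKM. Both are phloem markers, so a rise per cell and more phloem cannot be told apart. STP13, a hexose importer induced in defence, fell from 35.5 ± 5.40 to 8.79 ± 5.09 FPKM.

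Detoxification families were mixed. All counts of this paragraph before rescaling stand beside 25.8% higher and 16.7% lower among all tested genes. Tau and phi glutathione S-transferases had 11 of 28 genes higher and 7 lower (10 and 7 after rescaling), with GSTU1 up from 1.19 ± 0.457 to 11.6 ± 10.3 FPKM, or 6.72 without BBX32-10 replicate 2, and GSTF7 down from 91.1 ± 39.4 to 19.0 ± 8.46. GSTF7 is 92.6% identical over 892 bases to AT1G02930. UDP-glycosyltransferases had 23 of 56 higher and 8 lower (22 and 10 after rescaling). Cytochromes P450 had 25 of 110 higher and 36 lower (23 and 39 after rescaling), the falls including CYP76C6 (11.2 ± 2.41 to 0.476 ± 0.254 FPKM). A stretch of 620 bases of CYP76C6 is 93.5% identical to AT1G33730. Counts for protein synthesis genes depended on scaling. Of 182 cytosolic ribosomal protein genes 91 were called higher and 1 lower at a median of 0.29, and after rescaling 34 and 1 at a median of 0.20. Pentatricopeptide repeat genes, which process organelle transcripts, were called higher in 158 and lower in 15 of 372 cases, and after rescaling in 106 and 17. Organellar ribosomal protein genes were called higher in 12 and lower in 1 of 44 cases (9 and 3 after rescaling) and had a median of 0.06, which turned to -0.02 after rescaling.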

How the data were processed

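Leaf mRNA of 24 plants was sequenced, and the values used were the FPKM per gene that the authors deposited (fragments scaled to gene length and library depth). CASAVA, HISAT2 2.0.5, HTSeq 0.6.1 and DESeq2 1.20.0, with build TAIR10, are named per the submitters' processing notes, without roles. Use of strand and the treatment of fragments shared by overlapping genes or similar copies were not given in the sources used here, so such genes are uncertain.

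The deposited table held 34218 genes, of which 8980 were at 0 in every library. Of its IDs, 32548 matched the TAIR10.1 annotation, 99.95% of them at the same start and end. FPKM steps returned whole fragments (within 0.05) for 94.4% of 24962 genes. The limit for a value of 0 is 3 fragments per library and covers counting error only.

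Genes with at least 1 FPKM in at least 4 of 24 libraries were tested with limma 3.58.1 (R 4.3.3) on log2(FPKM + 1), with group means over all 6 groups, an intensity trend, and Benjamini-Hochberg adjustment over all tested genes (called at 0.05). The code was tested on simulated data. Gene overlaps come from that annotation, and similar transcripts from blastn 2.17.0 (at least 90% identity over at least 100 bases). Alternatives were another pseudocount, other filters, rescaled libraries, the 8 LL libraries alone, a 2-fold rule, a replicate block, each library left out, and voom on recovered fragments.

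Replicates were separate plants, per the labels' protocols. Members and lists were chosen with earlier results of these data known. Named genes were BBX32, HY5 and HYH, the 10 largest rises and falls whose libraries did not overlap, up to 4 called members of each list or family with the largest change, and any member of the B-box, HY5 and COP1, flavonoid, antenna, ELIP, salicylate and defence lists. SNG1, PDF1.3, RBCS3B, GGCT2;1, CBF2, CBF3, GLK2, MYC2 and the other genes named only as called, not called or not tested fall outside that rule and were chosen after their values were seen.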

Additional observations from a re-analysis of the deposited data

Results flagged for a closer look

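Each group of 4 plants was examined for a plant far from the other 3, by the gap to the nearest plant over the range of the group (Dixon's test at 95%). Of 498 groups of the genes named that reached 1 FPKM, 18 (3.61%) held such a plant, where chance gives about 1 in 20. NIMIN1 was at 2.27 FPKM in BBX32-10 replicate 3 and at 0.989 to 1.14 in the other 3 plants. VDE was at 39.9 FPKM in BBX32-10 replicate 4 and at 35.5 to 36.3 in the other 3 plants. GSTU24 was at 35.0 FPKM in BBX32-10 replicate 2 and at 7.26 to 10.3 in the other 3 plants. SVP was at 90.1 FPKM in Col-0 replicate 4 and at 87.4 to 87.7 in the other 3 plants. SNG1 was at 133 FPKM in BBX32-10 replicate 4 and at 110.5 to 113 in the other 3 plants. SAT was at 109 FPKM in BBX32-10 replicate 4 and at 131 to 134 in the other 3 plants. COP1 was at 18.0 FPKM in Col-0 replicate 2 and at 15.8 to 15.9 in the other 3 plants. COR15A was at 1347 FPKM in BBX32-10 replicate 4 and at 1838 to 1858 in the other 3 plants. PIF4 was at 59.0 FPKM in BBX32-10 replicate 4 and at 44.0 to 46.0 in the other 3 plants. LHCB2.3 was at 659 FPKM in BBX32-10 replicate 3 and at 824 to 852 in the other 3 plants. APR1 was at 64.8 FPKM in Col-0 replicate 2 and at 78.2 to 80.7 in the other 3 plants. EXLB1 was at 9.97 FPKM in Col-0 replicate 2 and at 6.91 to 7.34 in the other 3 plants. CCD4 was at 95.3 FPKM in BBX32-10 replicate 4 and at 68.2 to 69.2 in the other 3 plants. WRKY18 was at 11.1 FPKM in BBX32-10 replicate 1 and at 7.20 to 7.82 in the other 3 plants. MYB4 was at 15.5 FPKM in BBX32-10 replicate 4 and at 14.7 to 14.8 in the other 3 plants. CHE was at 31.1 FPKM in BBX32-10 replicate 2 and at 34.5 to 35.1 in the other 3 plants. SAUR21 was at 13.7 FPKM in Col-0 replicate 3 and at 11.1 to 11.4 in the other 3 plants. ZEP was at 276 FPKM in Col-0 replicate 3 and at 239 to 245 in the other 3 plants.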

How the results depend on the processing

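The main setting called 7563 genes, 60.7% of them higher in BBX32-10. A 2-fold rule left 1122 genes, 30.8% of them higher. The share higher was 47.7% after rescaling, 62.6% with a mean of at least 5 FPKM and 62.3% with only the 8 LL libraries. Leaving out each library in turn gave 6397 to 6876 called genes, of which 56.1% to 61.8% were higher, the lowest of both without BBX32-10 replicate 3. The cause was not tested. A pseudocount of 0.1 called 7492 genes, no filter on low values 7595, and voom on recovered fragments, chosen after seeing the data, 7505. No named gene turned its direction past the threshold in these alternatives, and those that changed sign (BBX24, LHCB1.3, EGL3, MYB7, RCA, CPC, BSMT1, EARLI1, SEP1, OHP1, LIL3.2, ZEP and LBD37) were not called as reported.

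Same-numbered plants of the 2 genotypes had deviations correlated at 0.045, 0.033, 0.052 and 0.14 (numbers 1 to 4), and number 2 correlated best with another number, so the numbers were not taken to pair the plants. With the replicate block 7305 genes were called, 60.6% of them higher.

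Of 262 named and tested genes 228 were called. Of these, 211 were called in every leave-one-out fit, 223 after rescaling, 226 with the block, 226 with a pseudocount of 0.1 and 228 by voom. COP1, SPA2, UGT78D1, LIL3.1 and ACX1 were not called after rescaling, nor UGT78D1 and PBS3 with the block, nor RUP1 and PBS3 with a pseudocount of 0.1. GL3, not called as reported, was called by voom and with a pseudocount of 0.1, as were BBX21, LHCB2.2 and UVR8 after rescaling. Leaving out single libraries ended the calls of 17 genes, with the log2 change then in parentheses. COL16 lost its call without Col-0 replicates 1 and 2 or BBX32-10 replicates 1, 2 and 3 (-0.28 to -0.25). GRXC9 lost its call without Col-0 replicate 1 (-0.87). UGT78D1 lost its call without Col-0 replicates 1, 2 and 3 or BBX32-10 replicates 1, 3 and 4 (0.24 to 0.29). LHCB2.1 lost its call without Col-0 replicates 2, 3 and 4 or BBX32-10 replicates 3 and 4 (-0.24 to -0.19). SNG1 lost its call without Col-0 replicate 4 (-0.43). LBD38 lost its call without Col-0 replicate 2 or BBX32-10 replicate 1 (-0.37 to -0.36). LTI30 lost its call without Col-0 replicates 1 and 2 or BBX32-10 replicates 1, 2 and 3 (0.73 to 1.06). SPA2 lost its call without Col-0 replicate 4 or BBX32-10 replicates 1 and 2 (0.15 to 0.17). AZI1 lost its call without Col-0 replicate 2 (0.76). ACX1 lost its call without Col-0 replicates 2 and 3 or BBX32-10 replicates 1, 2 and 3 (0.43 to 0.52). LIL3.1 lost its call without Col-0 replicate 1 (0.29). WRKY62 lost its call without Col-0 replicate 1 (-0.56). PBS3 lost its call without Col-0 replicates 1 and 2 or BBX32-10 replicates 2, 3 and 4 (-0.63 to -0.46). GGCT2;1 lost its call without Col-0 replicate 1 or BBX32-10 replicate 2 (-0.54 to -0.48). GLK2 lost its call without Col-0 replicates 3 and 4 or BBX32-10 replicates 2 and 3 (-0.23 to -0.21). RUP1 lost its call without Col-0 replicate 1 or BBX32-10 replicate 1 (0.34). HAI1 lost its call without BBX32-10 replicate 3 (1.01). Depth limits mainly genes near 0, such as the defensins. BBX32-10 is 1 line, and overlapping or similar genes may share fragments.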
